A study of Mus musculus with 12 samples.

Results

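The genes of bile acid synthesis and transport in the liver are described here across 12 two-color arrays from *db*/*db* mice given molecular hydrogen (H2). There are 10 members, taken by name from 20013 gene symbols on the array: *Cyp7a1*, *Cyp8b1*, *Cyp27a1* and *Cyp7b1* of synthesis, *Baat* of conjugation, *Abcb11*, *Slc10a1*, *Slco1b2* and *Slco1a1* of transport, and the regulator *Nr0b2*. All probes whose RefSeq record belongs to one of these genes were kept, which gave 11 of 39429 probes. The rule is by name, although the genes were listed with earlier results of these data known. *Slc10a1* has 2 probes and each other member has 1. All 11 probes passed the filter on dim spots, in either channel, on each of the 12 arrays.

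Male *db*/*db* mice of 8 weeks, which have no functional leptin receptor and become obese and diabetic, were studied throughout, the controls included. Per the labels, MgH2, a powder that gives off H2 in the stomach, was given by gavage once a day at 0.9 mg/kg for 1, 3 or 7 days, although the gavage paragraph of the methods names higher doses. H2-water at 0.8 mM was drunk for 14 days. Per the methods, the controls received Mg(OH)2 by gavage or degassed water. Each array compared a pool of liver RNA from 3 H2 mice, labeled with Cy5, with a pool from 3 control mice, labeled with Cy3, and 3 arrays were made per group. Pooling hides the spread between single mice. The dyes were never swapped. Any preference of a probe for Cy5 or Cy3 therefore stays in its ratio and drops out of a difference between 2 groups of ratios.

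Bile acids are made from cholesterol in hepatocytes. *Cyp7a1* starts the classical route and limits its rate, *Cyp27a1* and *Cyp7b1* act in the alternative route, and *Cyp8b1* adds the hydroxyl group that sets the share of cholic acid. *Baat* joins bile acids to taurine or glycine, *Abcb11* (the bile salt export pump) moves them into bile, and *Slc10a1* and the organic anion transporters *Slco1b2* and *Slco1a1* take them up again from blood. *Nr0b2*, known as SHP, is a repressor induced by the bile acid receptor FXR, the product of *Nr1h4*, and acts against transcription of *Cyp7a1*.

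Log2 ratios are Cy5 over Cy3, so that a value below 0 is a lower level in the H2 pool. A change was called at an adjusted P under 0.05 (limma, over all probes above background). Levels are log2 signals of 1 channel minus the 75th percentile of that channel on that array, and are compared only within a probe. By gavage, a control level is the mean of 1 array number over the 3 days unless a day is named. Of the spots, 51.8% to 56.5% were above background on an array and none was saturated. The 6 hepatocyte markers were above background on all arrays, *Alb* among them. In the bile duct list 3 of 5 markers were above background on all 3 arrays of 3, 7 and 14 days. The median log2 ratio of a single array lay between −0.0045 and 0.0097.

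The control channels carried a pattern that touches every gavage result. Control channels of the same array number at 1, 3 and 7 days deviated from their group means together (r from 0.322 to 0.671 over 9 pairs of arrays), and those of different numbers did not (r from −0.485 to 0.091 over 18 pairs). The H2 channels showed no such order (r from −0.296 to 0.176 for the same number and −0.404 to 0.437 for different numbers). Deviations from a group mean cancel out within the group. A positive r for the same number therefore makes the r of different numbers negative on average, and the latter is not separate evidence. The SD of log2 differences over 18414 probes was 0.137 to 0.212 between control channels of the same number and 0.219 to 0.316 between those of different numbers. The labels name a control for each day, and the sources used here do not say whether a pool was used on more than 1 array. The main fit takes the 9 gavage ratios as independent, so its P values do not allow for shared controls. Alternatives added after seeing the data treat these ratios as if they shared 3 control pools. Results of 1, 3 and 7 days are given side by side, and a similar sign on different days is not counted as independent support.

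After 7 days of MgH2, 4 of the 10 genes fell and none rose: *Slco1b2*, *Nr0b2*, *Baat* and *Abcb11*. On the linear scale *Nr0b2* fell by 31.7%, *Slco1b2* fell by 15.8%, *Abcb11* fell by 11.1% and *Baat* fell by 10.8%. After 1 and 3 days no gene was called by its brightest probe (limma, where 0 and 3 had an unadjusted P under 0.05, as did 25.6% and 36.1% of all probes). The second probe of *Slc10a1* was called lower at 3 days (limma, adjusted P = 0.0197). After 14 days of H2-water *Cyp7b1* alone was called, and fell by 26.5%. *Cyp7a1*, *Cyp8b1* and *Slco1a1* had the widest spread between arrays, and none of their mean ratios was called. These counts stand beside many calls among all probes. At 7 days 28.5% of all probes tested were called, 13.7% as lower. The shares were 8.62% at 1 day, 22.2% at 3 days, and 8.47% at 14 days, with 3.67% of all probes called as lower at 14 days. The median log2 ratio of the 10 genes was 0.05, 0.03, −0.07 and −0.07 at 1, 3, 7 and 14 days, and that of all probes tested was −0.0033, 0.0022, 0.0059 and −0.0049. In a liver RNA pool, fewer cells of a type and less RNA per cell cannot be told apart.

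**Figure D1:**
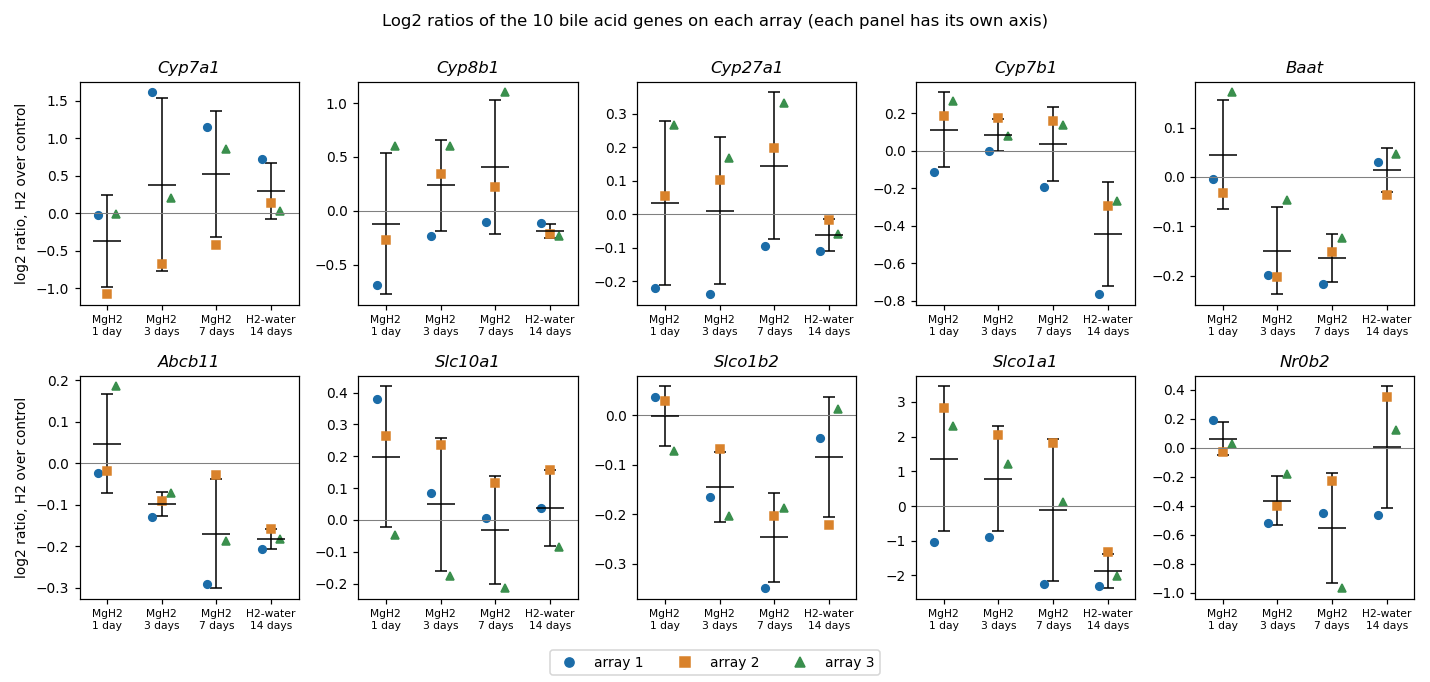
Log2 ratio of H2 over control (y axis, a separate scale for each gene) on each of the 12 arrays for the 10 genes, by group (x axis). Symbols mark the array number, bars the mean and the SD of 3 arrays, and the line at 0 no difference. The 3 ratios of *Slco1b2*, *Nr0b2*, *Baat* and *Abcb11* at 7 days are all below 0, and the ratios of *Slco1a1* run from −2.30 to 2.81.

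Among the transporters, *Slco1b2* showed the smallest adjusted P. Its log2 ratios were 0.04, 0.03 and −0.07 at 1 day, −0.17, −0.07 and −0.20 at 3 days, −0.35, −0.20 and −0.19 at 7 days, and −0.05, −0.22 and 0.01 at 14 days. All 6 arrays of 3 and 7 days were below 0, and the arrays of 7 days did not overlap those of 1 day. The mean at 7 days was −0.25 ± 0.09 (SD, n = 3; adjusted P = 0.00804). At 3 days the mean was −0.15 ± 0.07 (adjusted P = 0.0768). The control levels of this gene were nearly alike, with means of 4.58, 4.56 and 4.51 for array numbers 1, 2 and 3. The H2 pools stood at 4.47 to 4.61 at 1 day, 4.30 to 4.46 at 3 days and 4.21 to 4.35 at 7 days, so that the pools of 3 and of 7 days were below every control pool.

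*Abcb11*, the export pump, had log2 ratios of −0.02, −0.02 and 0.19 at 1 day, −0.13, −0.09 and −0.07 at 3 days, −0.29, −0.03 and −0.19 at 7 days, and −0.21, −0.16 and −0.18 at 14 days. It was below 0 on all 9 arrays from 3 days on. The mean fell to −0.17 ± 0.13 at 7 days (adjusted P = 0.0419). At 14 days the mean of −0.18 ± 0.02 was as low, and its adjusted P was 0.0690 (0.0380 to 0.165 over its alternatives with no replicate left out, 4 of which called it). The 3 H2-water pools, at levels of 2.96 to 3.04, lay below their 3 control pools at 3.18 to 3.21. By gavage the H2 pools of 7 days, at 2.60 to 2.87, overlapped the control pools at 2.77 to 2.97.

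*Nr0b2*, the repressor, had log2 ratios of 0.19, −0.03 and 0.03 at 1 day, −0.52, −0.40 and −0.18 at 3 days, −0.45, −0.23 and −0.97 at 7 days, and −0.46, 0.35 and 0.13 at 14 days. The third array of 7 days was the lowest, and the 14-day arrays fell on both sides of 0. The mean at 7 days was −0.55 ± 0.38 (SD, n = 3; adjusted P = 0.0282), and at 3 days −0.37 ± 0.17 (adjusted P = 0.128). The H2 pools were at −1.66 to −1.45 at 3 days and at −2.30 to −1.35 at 7 days, in both cases below the 3 control pools at −1.30 to −1.13.

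*Baat*, the conjugating enzyme, had log2 ratios of −0.005, −0.03 and 0.17 at 1 day, −0.20, −0.20 and −0.05 at 3 days, −0.22, −0.15 and −0.12 at 7 days, and 0.03, −0.04 and 0.05 at 14 days. All 6 arrays of 3 and 7 days were below 0, and the arrays of 14 days were near 0. The mean was −0.16 ± 0.05 at 7 days (adjusted P = 0.0305) and −0.15 ± 0.09 at 3 days (adjusted P = 0.0523). With the array number as a replicate block the 3-day value was called as well (adjusted P = 0.0172, with 0.0172 to 0.191 over its alternatives with no replicate left out). The block takes the spread between array numbers out of the error, so its P against 0 does not measure that spread. The block calls 28.9% of probes at 3 days. The highest H2 pool of 7 days, at a level of −0.4299, lay just above the lowest control pool at −0.4348, a mean over the 3 days. Against the controls of 7 days alone, at −0.33 to −0.28, all 3 H2 pools were lower.

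**Figure D2:**
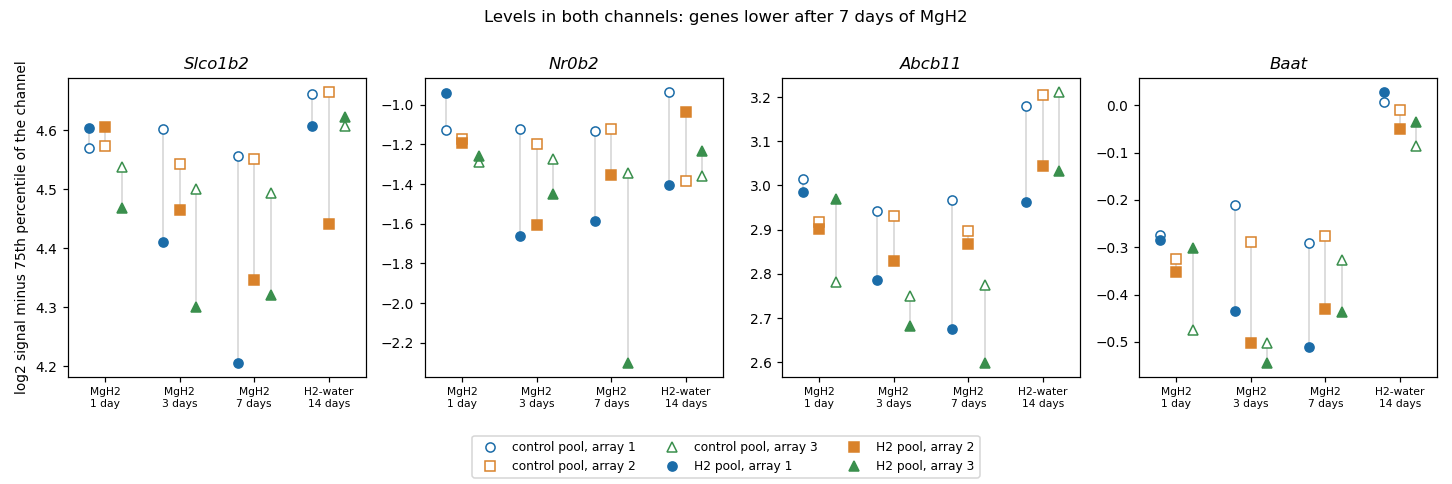
Levels (y axis, log2 signal minus the 75th percentile of the channel, a separate scale for each gene) of the 4 genes called at 7 days, by group (x axis). Open symbols are control pools, filled symbols H2 pools, shapes the array number, and lines join the 2 pools of an array. Controls are drawn day by day. The H2 pools of *Slco1b2* and *Nr0b2* lie below every control pool of their day at 3 and 7 days. Those of *Abcb11* overlap the controls at both times. Those of *Baat* overlap the controls at 3 days and lie below the controls of that day at 7 days.

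Counted over the 10 genes, with the control channels of a number averaged over the 3 days, the 3 H2 pools lay outside the range of the 3 control pools for 0 genes at 1 day, 2 at 3 days, 2 at 7 days and 2 at 14 days, all of them lower. The genes were *Slco1b2* and *Nr0b2* by gavage and *Abcb11* and *Slco1a1* with H2-water. Of all probes tested, 25.7% did so at 1 day, 32.7% at 3 days (17.2% lower), 39.2% at 7 days (18.4% lower) and 28.4% at 14 days (14.5% lower). These shares set Cy5 against Cy3 and so hold the dye bias of each probe. With the channels fitted apart and each control pool counted once, an alternative added after seeing the data, *Slco1b2* alone was called at 7 days (adjusted P = 0.00993), and *Nr0b2* (0.0594), *Abcb11* (0.0890) and *Baat* (0.0900) were not. That fit called 21.7% of probes.

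The 7-day calls rested on few arrays. Without array 1 none of the 4 genes was called. Without array 2 *Baat* was lost (adjusted P = 0.0885), and without array 3 *Slco1b2* alone was called. With the fit made on the 3 arrays of 7 days only, none was called (adjusted P from 0.0647 to 0.166). All 4 estimates stayed below 0 under every alternative. By the methods' t-test at an unadjusted P under 0.05, *Slco1b2* and *Baat* were called at 7 days, *Slco1b2* and *Nr0b2* at 3 days, *Abcb11* at 14 days and none at 1 day. That test called 14.8%, 19.6%, 25.4% and 19.6% of all probes at 1, 3, 7 and 14 days, and none of the 10 genes after Benjamini-Hochberg adjustment.

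Markers of cell types and states were also called at 7 days, where 28.5% of all probes tested were called, 13.7% as lower. In the list for stellate cells and matrix, *Col1a1*, *Col3a1* and *Lrat* of 5 tested were lower, and the summed signal of the list was 0.00138% to 0.00170% of the total in the controls and 0.00107% to 0.00128% in the H2 pools. Of the immune list 2 of 4 tested were lower (*Ptprc* and *Clec4f*), with the list at 0.00407% to 0.00464% in the controls and 0.00317% to 0.00351% in the H2 pools. Of the blood list *Alas2* was lower, of 4 tested, with the list at 0.101% to 0.189% of the signal in the controls and 0.106% to 0.152% in the H2 pools. The hepatocyte markers *Alb*, *Ttr* and *Tat* were higher, 3 of 6, with the list at 0.706% to 0.798% in the controls and 0.810% to 0.953% in the H2 pools. None of 3 bile duct and none of 2 pancreas markers tested was called. Of 7 fasting-induced genes 3 were higher (*Pck1*, *Ppargc1a* and *Angptl4*), of 5 male-biased genes 2 were lower (*Cyp4a12a* and *Cyp4a12b*), and of 9 clock genes none was called. Of the genes named here, *Col1a1*, *Col3a1*, *Lrat*, *Clec4f* and *Alas2* were called lower at 3 days too, and *Alb*, *Pck1*, *Ppargc1a* and *Angptl4* higher. The other genes named here were not called at 3 days, where 22.2% of all probes were. *Ptprc* was also called lower at 1 day, and *Alas2* and *Pck1* at 14 days. The mean log2 ratio of *Pck1* was −0.39 at 14 days, opposite in sign to 3 and 7 days. The part of these shifts in the bile acid results was not tested.

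The sequence before the start of *Nr0b2*, *Slco1b2* and *Abcb11* is shown because these are the genes among the 4 for which a promoter was at hand. The sequences are from RefSeq (GRCm38.p6), 5′ to 3′ on the strand of the gene, up to 250 bases before the start and without bases inside the annotated gene. Capitals mark matches on either strand to 5 motifs. The core bound by LRH-1, the product of *Nr5a2*, was searched as TCAAGG. The half-site of nuclear receptors was searched for by the letters AGGTCA. The E-box, bound by helix-loop-helix factors such as those of the clock, was searched for by CACGTG. The D-box of PAR bZIP factors was searched for in the single form of TTATGTAA. The TATA box, at which transcription of some genes is placed, was searched for by TATAAA. The window of *Nr0b2* on the plus strand lies at chr4:133553126-133553375, that of *Slco1b2* on the plus strand at chr6:141629268-141629451, and that of *Abcb11* on the minus strand at chr2:69342617-69342866.
Nr0b2: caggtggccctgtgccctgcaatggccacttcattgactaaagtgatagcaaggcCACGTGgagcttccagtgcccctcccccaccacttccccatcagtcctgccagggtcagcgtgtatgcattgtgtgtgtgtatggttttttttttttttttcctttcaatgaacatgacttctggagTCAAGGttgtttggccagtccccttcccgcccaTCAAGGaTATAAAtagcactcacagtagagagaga
Slco1b2: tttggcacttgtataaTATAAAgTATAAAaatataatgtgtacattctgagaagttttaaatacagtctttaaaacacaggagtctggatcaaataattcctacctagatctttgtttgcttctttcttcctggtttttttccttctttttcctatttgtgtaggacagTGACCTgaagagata
Abcb11: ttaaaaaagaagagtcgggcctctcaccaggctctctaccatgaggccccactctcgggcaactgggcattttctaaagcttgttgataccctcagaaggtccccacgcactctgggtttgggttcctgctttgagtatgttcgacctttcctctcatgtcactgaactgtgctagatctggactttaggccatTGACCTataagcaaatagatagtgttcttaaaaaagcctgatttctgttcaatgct
*Nr0b2* held the LRH-1 core at 2 places, with first bases at −68 and −35 from the start, a TATA box at −28 and an E-box at −195. Positions are counted from the transcript start of the promoter table. For *Nr0b2* and *Abcb11* the printed window ends just before it. For *Slco1b2* that start lies inside the annotated gene, beyond the end of the 184 bases printed, so its positions also count the bases between that end and the start. The core is found in 12.46% and the E-box in 6.02% of the 32851 windows of 250 bases in the table. *Slco1b2* held a nuclear receptor half-site on the other strand at −81 and the letters TATAAA at −234 and −227, and *Abcb11* a half-site on the other strand at −56. The half-site is in 14.02%, TATAAA at any position in 12.37% and the D-box in 0.82% of windows. Promoters were matched for 7 of the 10 genes, in 8 windows of 250 bases as the table gives them, some of them partly or wholly inside the annotated gene. Over these 7 genes, the LRH-1 core and the E-box were found in *Nr0b2* alone, the half-site in 4, TATAAA at any position in 5 and the D-box in none. The matches shown do not overlap each other. A match is a description of the letters, not a site that was shown to be bound.

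*Slc10a1*, the sodium-dependent uptake carrier, was called in no group by its brighter probe. The log2 ratios of that probe were 0.38, 0.26 and −0.05 at 1 day, 0.08, 0.24 and −0.17 at 3 days, 0.01, 0.12 and −0.22 at 7 days, and 0.04, 0.16 and −0.08 at 14 days. Array 3 was the lowest in every group. The 2 probes disagreed at 3 days: the mean was 0.05 ± 0.21 for the brighter probe (adjusted P = 0.763) and −0.19 ± 0.03 for the other (adjusted P = 0.0197), with −0.22, −0.18 and −0.16 on its 3 arrays. At 1 day the brighter probe had a mean of 0.20 ± 0.22 (adjusted P = 0.243). It was called with the replicate block (adjusted P = 0.0316; from 0.0313 to 0.577 over its alternatives with no replicate left out), which calls 13.8% of probes there, and the other probe had −0.06 ± 0.10.

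*Slco1a1*, an uptake transporter known to be higher in male liver, had the widest range of the 10 genes. Its log2 ratios were −1.03, 2.81 and 2.30 at 1 day, −0.89, 2.04 and 1.2 at 3 days, −2.26, 1.81 and 0.13 at 7 days, and −2.30, −1.32 and −2.0 at 14 days. By gavage array 1 was always far below 0 and arrays 2 and 3 above it. The control levels carried this order: −2.44, −2.52 and −2.52 for number 1 at 1, 3 and 7 days, −4.88, −5.04 and −4.96 for number 2, and −5.22, −5.06 and −4.93 for number 3. The control means of the 3 numbers thus differed 5.96-fold at the most, and controls of 1 number by 0.29 on the log2 scale at the most. The H2 pools stood at −3.48 to −2.07 at 1 day, −3.85 to −3.01 at 3 days and −4.78 to −3.14 at 7 days, all overlapping the controls. Its mean ratios were 1.36 ± 2.09, 0.78 ± 1.51 and −0.10 ± 2.04 by gavage, none of them called.

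With H2-water *Slco1a1* was lower on all 3 arrays, with a mean of −1.87 ± 0.50, 3.67-fold, and an adjusted P of 0.224. The H2 pools, at −4.66 to −3.51, lay below the 3 controls at −3.34 to −1.2. The fit on the 3 arrays of this group called it (adjusted P = 0.0416; from 0.0254 to 0.227 over its alternatives with no replicate left out). The 6 genes of the male-biased list tested at 14 days had a median log2 ratio of −0.55, and none of them was called. The summed signal of that list was 0.188% to 0.308% of the total in the controls and 0.164% to 0.173% in the H2 pools. Their part in the value of *Slco1a1* was not tested.

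**Figure D3:**
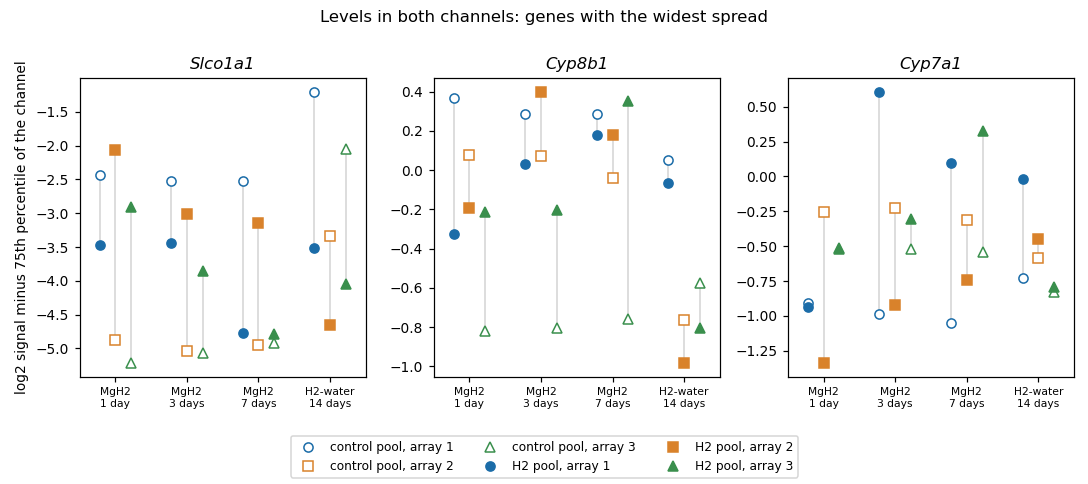
Levels (y axis, log2 signal minus the 75th percentile of the channel, a separate scale for each gene) of *Slco1a1*, *Cyp8b1* and *Cyp7a1* by group (x axis). Open symbols are control pools, filled symbols H2 pools, and shapes the array number. Open symbols of 1 shape sit at nearly 1 height at 1, 3 and 7 days, and differ between shapes by up to 2.58 for *Slco1a1*.

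*Cyp7a1*, the first enzyme of the classical route, was not called in any group. Its log2 ratios were −0.02, −1.09 and −0.01 at 1 day, 1.62, −0.68 and 0.21 at 3 days, 1.15, −0.43 and 0.85 at 7 days, and 0.72, 0.14 and 0.03 at 14 days. Array 2 was the lowest at each gavage time, and the 14-day arrays were all above 0. The means were −0.37 ± 0.62, 0.38 ± 1.16, 0.53 ± 0.84 and 0.29 ± 0.37 (adjusted P from 0.380 to 0.734). Array 2 had the highest control level of this gene, −0.26 to −0.23 at 1 and 3 days and −0.31 at 7 days, against −1.05 to −0.91 for number 1. The H2 pools themselves ran from −1.34 to −0.52 at 1 day, −0.92 to 0.61 at 3 days and −0.74 to 0.32 at 7 days, all overlapping the controls.

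*Cyp8b1*, the 12-alpha-hydroxylase, had log2 ratios of −0.69, −0.27 and 0.60 at 1 day, −0.23, 0.34 and 0.60 at 3 days, −0.10, 0.22 and 1.1 at 7 days, and −0.11, −0.22 and −0.23 at 14 days. Array 1 was the lowest and array 3 the highest at each gavage time. The control means of array numbers 1, 2 and 3 were 0.31, 0.04 and −0.80, a 2.16-fold range. The H2 pools stood at −0.32 to −0.19 at 1 day, −0.20 to 0.40 at 3 days, 0.18 to 0.35 at 7 days and −0.98 to −0.07 at 14 days, each overlapping its controls. The group means of −0.12, 0.24, 0.41 and −0.19 were not called (adjusted P from 0.279 to 0.826).

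In the alternative route, *Cyp27a1* was measured by 10 spots, of which 9 or 10 entered on each array. Its log2 ratios lay between −0.24 and 0.33, and its group means of 0.03, 0.01, 0.15 and −0.06 were not called. *Cyp7b1* had log2 ratios of −0.11, 0.18 and 0.27 at 1 day, −0.0018, 0.17 and 0.08 at 3 days, −0.19, 0.16 and 0.14 at 7 days, and −0.77, −0.30 and −0.27 at 14 days. The 3 arrays of H2-water were below every gavage array. The mean at 14 days was −0.44 ± 0.28 (SD, n = 3; adjusted P = 0.0352). The call was lost without any 1 of the 3 arrays (adjusted P from 0.0801 to 0.209). It was also lost without a filter on dim probes (adjusted P = 0.0506), with the fit on these 3 arrays only (0.103) and with the channels apart (adjusted P = 0.187). The H2 pools at −0.98 to −0.62 overlapped the controls at −0.68 to 0.15.

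The spread between arrays of a group separated the 10 genes. The median SD of the log2 ratio within groups was 1.78 for *Slco1a1*, 0.729 for *Cyp7a1*, 0.525 for *Cyp8b1* and 0.274 for *Nr0b2*, against 0.102 for the median of the 18474 probes above background on all arrays. It was under that value for *Baat* (0.0688), *Abcb11* (0.0745) and *Slco1b2* (0.0802). A given difference is therefore measured far more closely for the last 3 genes than for *Slco1a1* or *Cyp7a1*.

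The change over the days of gavage was tested in the contrasts, in which the dye bias of a probe cancels. At 7 days against 1 day, none of the 10 genes was called (6.1% of probes were), and 4 had an unadjusted P under 0.05, as did 24.4% of probes. These were *Slco1b2* with a difference of −0.25 (adjusted P = 0.0833), *Baat* with −0.21 (0.0993), *Abcb11* with −0.22 (0.121) and *Nr0b2* with −0.61 (0.130). For each of these 4, the 3 arrays of 7 days were all below those of 1 day, and the other 6 genes overlapped. The groups of *Abcb11* nearly touched, with −0.0288 the highest at 7 days and −0.0245 the lowest at 1 day. Of all probes, 28.5% did not overlap here, 13.2% as lower. With the replicate block *Baat* was called (adjusted P = 0.0378), and the block calls 11% of probes. With the control number as a random block, added after seeing the data, *Baat* (0.0218), *Slco1b2* (0.0267) and *Abcb11* (0.0466) were called, among 18.1% of probes, and *Nr0b2* was not.

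With the channels fitted apart, this contrast sets the H2 pools of 7 days against those of 1 day without the controls. It called *Slco1b2* (−0.27, adjusted P = 0.00871), *Abcb11* (−0.24, 0.0249) and *Nr0b2* (−0.62, 0.0374), among 22.1% of probes. Over the alternatives with no replicate left out, the adjusted P ran from 0.00871 to 0.192 for *Slco1b2*, from 0.0249 to 0.258 for *Abcb11*, from 0.0374 to 0.219 for *Nr0b2* and from 0.0218 to 0.217 for *Baat*. Without any 1 array of 1 or 7 days none was called in the fit of ratios. The arrays of 1 and 7 days lie on different slides, so no difference within a slide could be had.

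Within an array number, 7 days minus 1 day had 1 sign in all 3 numbers for each of the 10 genes, as it had for 56.5% of all probes. This was looked at after the values were seen, and is given as a description with no test. The differences of *Cyp7a1* were 1.18, 0.66 and 0.87 for numbers 1, 2 and 3, those of *Cyp8b1* 0.58, 0.49 and 0.50, and those of *Cyp27a1* 0.13, 0.14 and 0.07. These 3 were the genes with higher ratios at 7 days in every number. *Slco1a1* was lower at 7 days, by differences of −1.22, −1.0 and −2.17, and *Slc10a1* by −0.37, −0.15 and −0.17. With the replicate block none of these 5 was called (adjusted P = 0.120 for *Cyp7a1*, 0.203 for *Cyp8b1*, 0.395 for *Cyp27a1*, 0.138 for *Slco1a1* and 0.0613 for *Slc10a1*).

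At 3 days against 1 day and at 7 days against 3 days none of the 10 genes was called, and 0% of all probes were (limma; 2844 and 836 probes had an unadjusted P under 0.05). Of the members, 1 (*Baat*, −0.19) and 0 had an unadjusted P under 0.05, beside 14.8% and 4.37% of all probes. On slide 1, which holds 1 array of 3 days and the 3 of 1 day, the difference was −0.24 for *Baat*, −0.58 for *Nr0b2*, −0.18 for *Abcb11* and −0.16 for *Slco1b2*, and all 4 kept the sign of the whole set. On slide 2, with 2 arrays each of 3 and 7 days, *Cyp8b1* had −0.41 where all arrays gave 0.17, and *Cyp27a1* −0.08 where all gave 0.13. Differences within a slide set unlike array numbers against each other, number 1 against 1 to 3 on slide 1 and numbers 1 and 2 against 2 and 3 on slide 2, so slide and number cannot be told apart in them.

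The groups of 14 days of H2-water and 7 days of MgH2 differ in agent, vehicle, duration, slide and version of the image software (Agilent Feature Extraction). In their contrast none of the 10 genes was called (5.42% of probes were). An unadjusted P under 0.05 was found for 3: *Cyp7b1* (−0.48, adjusted P = 0.0972), *Baat* (0.18, 0.150) and *Nr0b2* (0.56, 0.166), and for 23.8% of all probes. The 14-day arrays of *Cyp7b1* lay below all of the 7-day arrays and those of *Baat* above them. The 14-day arrays of *Cyp8b1* were just below those of 7 days, with −0.1107 the highest at 14 days and −0.1042 the lowest at 7 days. The groups overlapped for *Nr0b2*, and 32.4% of all probes did not overlap.

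Other genes of the bile acid pathway were taken from a list of 49 by role, of which 48 were on the array and 44 tested in each group. *Ch25h*, *Slc51a*, *Vdr* and *Fgf15* were not well above background. Of the 44 tested, 2 rose and 0 fell at 1 day, 7 rose and 4 fell at 3 days, 7 rose and 6 fell at 7 days, and 0 rose and 3 fell at 14 days. The calls, 2, 11, 13 and 3 of 44, are near the shares of all probes called, 8.62%, 22.2%, 28.5% and 8.47%. The replicate block called 5 at 1 day and 8 at 14 days, where it calls 13.8% and 13.2% of all probes, and 35.3% at 7 days. The median log2 ratios of the list were 0.02, 0.08, 0.04 and 0.0049. *Nr1h4*, the bile acid receptor, was called in no group, with means between −0.08 and 0.0028.

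Of 14 synthesis genes tested, 2 rose and 3 fell at 3 days, and 3 rose and 4 fell at 7 days, beside 22.2% and 28.5% of all probes called. *Cyp39a1*, the oxysterol 7-alpha-hydroxylase, showed the largest called changes of the list at 3, 7 and 14 days. Its log2 ratios were −0.43, −0.28 and −0.21 at 1 day, 0.53, 1.01 and 0.91 at 3 days, 0.79, 0.84 and 1.06 at 7 days, and −0.26, −0.64 and −0.41 at 14 days. The arrays of 3 and 7 days were all above 0 and those of 1 and 14 days all below. The means were 0.82 ± 0.25 at 3 days (1.76-fold; adjusted P = 0.000831), 0.89 ± 0.14 at 7 days (1.86-fold; adjusted P = 0.000330) and −0.43 ± 0.19 at 14 days (adjusted P = 0.0261). Its differences were called at 7 days against 1 day (1.2, adjusted P = 0.00751) and at 14 days against 7 days (−1.33, adjusted P = 0.00547), in each case under all 16 alternatives. The 3-day rise was lost with the fit on its 3 arrays only (adjusted P = 0.0566), and the 14-day fall without any 1 of its 3 arrays.

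Among the other synthesis genes, *Akr1d1*, the 5-beta-reductase of the steroid ring, rose at 7 days to 0.32 ± 0.06 (adjusted P = 0.0272). *Acox2*, which shortens the side chain in peroxisomes, rose at 3 days to 0.27 ± 0.06 (adjusted P = 0.0136). *Cyp2c70*, which makes the muricholic acids of mice, fell at 3 days to −0.39 ± 0.09 (adjusted P = 0.0464). The calls of *Akr1d1* and *Cyp2c70* were lost without any 1 array of their group, and that of *Acox2* without array 2 (highest adjusted P 0.112, 0.161 and 0.0854 over all alternatives).

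Of 13 further transporters tested, 2 rose at 1 day, 3 at 3 days and 2 at 7 days, and none fell in any group. The shares of all probes called, in either direction, were 8.62%, 22.2% and 28.5%. *Slco1a4*, an organic anion transporter of the same family as *Slco1a1*, had log2 ratios of −0.62, −0.37 and −0.26 at 1 day, 0.10, 0.85 and 0.63 at 3 days, 0.69, 0.73 and 1.14 at 7 days, and 0.26, −0.30 and 0.36 at 14 days. Its means were 0.52 ± 0.39 at 3 days (adjusted P = 0.0425) and 0.85 ± 0.24 at 7 days (1.81-fold; adjusted P = 0.00413), opposite in sign to *Slco1b2*. The difference of 7 days from 1 day was 1.27 (adjusted P = 0.0203; 0.000512 to 0.0713 over its alternatives). The 3-day call was lost without array 2 or array 3 (highest adjusted P 0.238). *Abcc2*, a pump of the bile canaliculus, rose at 1 day to 0.23 ± 0.05 (adjusted P = 0.0223), and *Abcg8*, of the sterol exporter, to 0.22 ± 0.18 (adjusted P = 0.0366). The call of *Abcc2* was lost without any 1 array and that of *Abcg8* without array 1 or array 2 (highest adjusted P 0.210 and 0.280).

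Of 14 regulators tested, 1 rose and 1 fell at 3 days, 1 rose and 2 fell at 7 days, and 2 fell at 14 days, beside 22.2%, 28.5% and 8.47% of all probes called. *Ppargc1a*, a coactivator of nuclear receptors, rose to 0.58 ± 0.27 at 3 days (adjusted P = 0.0374) and 0.77 ± 0.19 at 7 days (adjusted P = 0.00913). *Nr5a2*, which codes for LRH-1, fell at 7 days to −0.26 ± 0.05 (adjusted P = 0.0137), with −0.21, −0.29 and −0.29 on its arrays. *Fgfr4*, the hepatic receptor for FGF15, fell by 0.21 on the log2 scale at 14 days (adjusted P = 0.0211). The ratios of *Fgfr4* were also called lower at 3 and 7 days (adjusted P = 0.0104 and 0.0118). *Hnf4a*, a factor of hepatocyte genes, fell by 0.21 at 14 days too (adjusted P = 0.0403). Without array 1 the 7-day call of *Ppargc1a* was lost (adjusted P = 0.0620), and its 3-day call and both 14-day calls were lost without any 1 array. The call of *Nr5a2* was lost without array 2 or array 3 (highest adjusted P 0.0766). Of 3 detoxification genes, *Cyp3a11*, which hydroxylates bile acids and drugs, rose to 0.41 ± 0.29 at 3 days (adjusted P = 0.0288) and 0.38 ± 0.18 at 7 days (adjusted P = 0.0305), and was lost at both times without array 2 or array 3 (highest adjusted P 0.174 and 0.170).

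**Figure D4:**
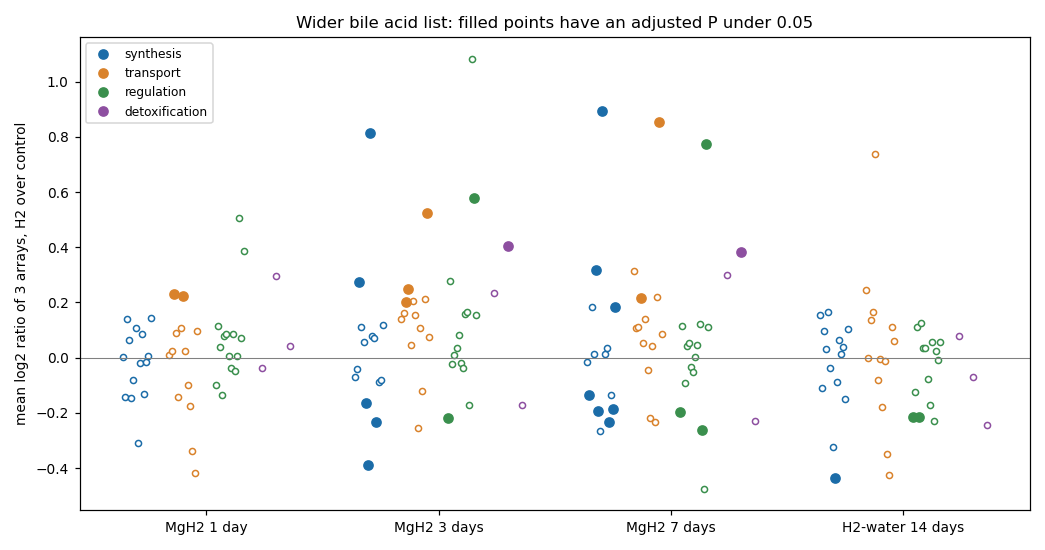
Mean log2 ratio of 3 arrays, H2 over control (y axis), of each tested gene of the wider bile acid list in each group (x axis), colored by role. Filled points have an adjusted P under 0.05, 2 of 44 at 1 day, 11 at 3 days, 13 at 7 days and 3 at 14 days, and the highest filled points at 3 and 7 days are *Cyp39a1*.

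As a description over the 12 arrays, whose gavage ratios may share controls, the closest ratios among the 10 genes were those of *Cyp8b1* and *Cyp27a1* (Pearson r = 0.887), of *Cyp7b1* and *Slco1a1* (0.836) and of *Abcb11* and *Slco1a1* (0.744). The most opposed were *Cyp8b1* and *Slc10a1* (−0.711) and *Cyp7a1* and *Slco1a1* (−0.672). Of 11497 other genes above background on all arrays, those most like *Cyp7a1* were *Mblac2* (0.935), *Rrn3* (0.921) and *Ccdc86* (0.918). Most like *Nr0b2* were *Trim30a* (0.915), *Irf9* (0.907) and *Psmb9* (0.901), and most like *Slco1a1* were *Sult4a1* (0.965), *Acsm2* (0.956) and *Clec2e* (0.933).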

How the data were processed

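Liver RNA pools were compared on 12 two-color arrays, 3 in each of 4 groups taken from the labels. The authors scanned the arrays and processed them with Agilent Feature Extraction, which corrected the intensity of each channel for background and normalized the dyes within an array. Its version was 10.10.1 in the submitters' processing notes. Per the file headers it was 10.10.1.1 for the gavage arrays and 10.7.3.1 for the H2-water arrays. The deposited processed intensities were used as they are. The log2 ratio table that the authors deposited equals the log ratio of the scanner files within 1.4e-06 and served as an alternative. Each of its columns has a median of 0, its scale is log2 and its direction is Cy5 over Cy3, as found by comparison with the scanner files. The scanner files also hold a P value from the error model of single arrays, which was not used.

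Control spots and spots marked as non-uniform or as population outliers (160 to 244 an array) were left out, and spots of a probe were averaged, at most 10. Of 39429 probes, 26406 (67%) carry a symbol through their RefSeq record, and no genome build was used for the values. Where a gene had several probes, the brightest on average stood for it. No value was floored, and all member probes were above background. The number of arrays limits the precision.

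limma 3.58.1 in R 4.3.3 was fitted to all 12 arrays with a mean per group. Group means were tested against 0 and 4 contrasts between groups were made, two-sided, with Benjamini-Hochberg adjustment over probes above background in both channels (at least 50% of their spots) on all arrays compared. P values measure the spread between pools. With the replicate block, those of a group mean against 0 leave out the spread between array numbers. Data were simulated with noise independent between arrays. For 7 days of MgH2 (19415 probes) the fit recovered 76% of 100 probes changed 1.5-fold and 34% of 100 changed 1.2-fold. For 7 days against 1 day (19114 probes) it recovered 63% and 14%. False calls were 6 and 4. In the data, ratios of 1 array number were correlated and far more probes were called, so these shares may not hold there.

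Arrays of 1, 3 and 7 days are paired by array number from the data: their ratios correlated within a number (deviations from group means, r from 0.368 to 0.655 over 9 pairs), and those of different numbers did not (−0.433 to 0.053). Deviations cancel out within a group, so the range for different numbers follows in part from that within a number. The labels give the numbers without a stated link. Those of 14 days were not all paired with 7 days (0.035 to 0.287). Of the 4 slides, 1 holds the arrays of 14 days alone, and slide was used as a random block. The correlation within a slide was −0.071 in that fit. A negative value narrows the error of a group mean whose arrays share a slide.

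Alternatives were the scaling of the channels, median centering, normexp (offset of 50) with loess, no filter on dim probes, fewer arrays in the fit, outlier spots, blocks, leaving out each array, the methods' t-test (on log2 channel signals scaled by the total of each array) and the other probe of *Slc10a1*. Another 2 were added after seeing the data. The members and lists were chosen with earlier results of these data known. All 10 members are named. From the wider list the called genes are named, at most 6 per group by size, and for *Cyp7a1*, *Nr0b2* and the member with the widest range of group means the 3 genes of highest r. *Fgfr4* at 3 and 7 days and *Nr1h4* are outside this rule and were chosen after their values were seen. *Ugt1a1*, *Hbb-bs*, *Cd68* and *Selenbp2* matched no probe. Figures were drawn with matplotlib.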

Additional observations from a re-analysis of the deposited data

Results flagged for a closer look

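*Cyp39a1* and *Slco1a4* differed between groups by a test of the difference. The log2 ratio of *Cyp39a1* was 1.2 higher at 7 days than at 1 day of MgH2, 2.30-fold (limma, adjusted P = 0.00751), and 1.33 lower at 14 days of H2-water than at 7 days of MgH2, a difference of −1.33 (adjusted P = 0.00547). All 3 arrays of 7 days were above all 3 of the other group in both cases. *Slco1a4* was 1.27 higher at 7 days than at 1 day, 2.41-fold (adjusted P = 0.0203). The H2-water and gavage groups differ in agent, vehicle, slide, duration and version of the image software, which cannot be told apart.

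Other differences had no test, since no contrast was made between their groups. *Cyp7a1* was below 0 on all 3 arrays of 1 day and above 0 on all 3 of 14 days, with means that differ by 0.67. Several of these values were close to 0: −0.02, −1.09 and −0.01 at 1 day, and 0.72, 0.14 and 0.03 at 14 days. Without array 2 the 1-day mean was −0.02. *Cyp39a1* was above 0 on all 3 arrays of 3 days and below 0 on all 3 of 14 days, a difference of −1.25. Whether these groups differ was not tested.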

How the results depend on the processing

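The direction turned with a call only for *Slc10a1* at 3 days, where the other probe gave −0.19. Counts of called members, of 10, moved as follows. At 1 day the count of 0 became 1 with normexp and loess. At 3 days the count of 0 became 2 with the channels divided by their totals or by the methods' t-test unadjusted, and 1 with median centering, slide as a random block or the random block of the control number. At 7 days the count of 4 became 2 without a filter on dim probes, 0 with only its arrays in the fit, 2 by the methods' t-test unadjusted and 0 adjusted, and 1 with the channels apart. At 14 days the count of 1 became 2 with channel totals, normexp and loess or slide as a random block, and 0 without a filter, by the methods' t-test adjusted or with the channels apart. At 7 days against 1 day the count of 0 became 3 with the random block of the control number or the channels apart.

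With the replicate block the counts were 1, 1, 4 and 3 at 1, 3, 7 and 14 days, 1 at 7 days against 1 day, and 1 at 14 days against 7 days (*Cyp7b1*, adjusted P = 0.0165), where the arrays only share a number. The block called *Slc10a1* at 1 day, *Baat* at 3 days and at 7 days against 1 day, and *Cyp7b1*, *Slco1a1* and *Abcb11* at 14 days. Its calls of a group mean leave out the spread between array numbers, and the numbers of 14 days have no stated link to those of gavage. It called 0 at 3 days against 1 day and at 7 days against 3 days. For the wider list it called 5, 14, 17 and 8 genes at 1, 3, 7 and 14 days, where it calls 13.8%, 28.9%, 35.3% and 13.2% of all probes, and it changed no other call among the 10.

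Leaving out 1 array gave counts of 0 at 1 day, 0 to 1 at 3 days, 0 to 3 at 7 days and 0 at 14 days, and for the wider list 0 to 2, 3 to 7, 5 to 9 and 0 to 1. In the wider list, 2 genes at 1 day became 6 with normexp and loess or slide as a random block and 0 without a filter, with only its arrays or with the channels apart. At 3 days 11 became 4 without a filter and 0 with only its arrays, and at 7 days 13 became 5 with only its arrays. At 14 days 3 became 5 with channel totals or the random control block, 7 with normexp and loess, 6 with slide as a random block, and 0 with only its arrays or the channels apart. The causes of these shifts were not tested. Fits on fewer arrays have fewer degrees of freedom and also take the spread from those arrays alone. Pools of 3 mice, 3 arrays a group, no dye swap and controls that may be shared limit what differences of under 1.2-fold can show.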
